A study of Mus musculus with 7 samples.

Results

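CpG-poor protein-coding promoters were followed in the open chromatin of mouse LSK cells (lineage-negative, Sca-1+, c-Kit+ bone marrow cells, the fraction that holds the blood stem cells and the earliest progenitors). A promoter was taken as CpG-poor when the 500 bp on each side of an annotated start site of a protein-coding transcript had an observed to expected CpG ratio under 0.4, where the expected number follows from the C and G content of the same stretch. The peaks of all 7 ATAC-Seq libraries on the 19 autosomes merged into 172143 regions, of which 3029 overlapped such a start site. A further 12469 regions overlapped only protein-coding start sites at or above the limit, and 156645 overlapped none. The 3029 CpG-poor promoter regions carried start sites of 2745 genes, and 2822 of them held no start site at or above the limit. Counting only the 5′ end of each gene gave 1753 regions, so a value named by its gene can come from an alternative start inside that gene.

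The groups compared were adult C57/BL6 offspring. The 3 Ctrl libraries came from offspring of normal pregnancies, and the 4 WTAkita libraries from wild-type offspring of dams made diabetic by the Ins2 Akita mutation, so the offspring of both groups carried no mutation themselves. In the paper's breeding scheme, both the Akita females and their wild-type littermates received a high-fat diet before mating. The offspring were kept on a regular diet. Each library was made from 50000 sorted LSK cells, and the number of mice behind a library is unknown, so each p-value reflects only how far these libraries spread. ATAC-Seq marks DNA that a transposase can cut, and the value used is the fold enrichment deposited for each peak, the highest in a region being taken for each library. In such bulk samples, fewer cells with an open site and less opening per cell cannot be told apart.

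Most mammalian promoters sit in CpG islands, stretches that keep their CpG dinucleotides because they are held free of DNA methylation, and these are accessible in nearly every cell type. Promoters outside such islands are methylated by default, depend more on tissue-restricted transcription factors, and serve many genes that are switched on in a single lineage. In blood, factors such as PU.1, an ETS family protein of myeloid and early lymphoid cells, and RUNX1 bind many promoters of this kind.

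The 6 most accessible CpG-poor promoters are printed first, as examples of such sequences. Each is read 5′ to 3′ on the strand of its gene, from the GRCm38 genome (mm10), over 130 bases before the annotated start site and 20 from it on. Capitals mark GAGGAA, the purine-rich core that ETS factors such as PU.1 read, or its reverse complement. Pirb, an inhibitory receptor of myeloid and B cells, and Ly6a, which encodes the Sca-1 antigen of the LSK gate, were added after their values were seen.
Trim5, chr7:104288075-104288224, minus strand: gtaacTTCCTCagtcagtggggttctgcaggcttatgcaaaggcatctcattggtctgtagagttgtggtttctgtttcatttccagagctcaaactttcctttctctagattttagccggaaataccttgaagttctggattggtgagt
Cr2, chr1:195176591-195176740, minus strand: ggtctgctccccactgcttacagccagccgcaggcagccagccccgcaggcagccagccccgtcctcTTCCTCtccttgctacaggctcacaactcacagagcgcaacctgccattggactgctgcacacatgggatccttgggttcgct
Fggy, chr4:95557377-95557526, plus strand: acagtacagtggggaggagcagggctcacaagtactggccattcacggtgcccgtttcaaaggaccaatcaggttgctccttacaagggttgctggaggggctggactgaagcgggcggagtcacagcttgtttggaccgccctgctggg
Lilra6, chr7:3915466-3915615, minus strand: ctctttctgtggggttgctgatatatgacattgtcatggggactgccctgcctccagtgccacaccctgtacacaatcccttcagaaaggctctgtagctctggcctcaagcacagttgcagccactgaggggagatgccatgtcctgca
Gm5141, chr13:62785789-62785938, minus strand: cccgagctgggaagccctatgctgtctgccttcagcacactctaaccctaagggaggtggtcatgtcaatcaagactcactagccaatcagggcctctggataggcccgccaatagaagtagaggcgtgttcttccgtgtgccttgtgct
Trim12c, chr7:104353319-104353468, minus strand: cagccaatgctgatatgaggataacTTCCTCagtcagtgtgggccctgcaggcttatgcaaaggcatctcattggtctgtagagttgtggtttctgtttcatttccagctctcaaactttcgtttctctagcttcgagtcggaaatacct
Pirb, chr7:3720363-3720512, minus strand: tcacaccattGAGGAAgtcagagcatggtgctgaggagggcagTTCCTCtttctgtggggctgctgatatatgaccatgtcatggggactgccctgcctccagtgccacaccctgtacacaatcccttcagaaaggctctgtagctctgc
Ly6a, chr15:74997816-74997965, minus strand: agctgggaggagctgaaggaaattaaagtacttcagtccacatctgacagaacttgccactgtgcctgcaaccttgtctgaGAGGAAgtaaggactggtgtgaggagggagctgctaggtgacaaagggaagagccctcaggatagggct

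These stretches held few CpG dinucleotides. Lilra6, Pirb and Ly6a had 0 in 150 bases, Trim5 had 1, Trim12c 3, Gm5141 4, and Cr2 and Fggy 5 each. The capitals stand in 5 of the 8. Trim5 and Trim12c, neighbouring antiviral genes of the tripartite motif family, were 95% identical over the window from 250 bases before to 50 after their starts. Lilra6 and Pirb belong to a cluster of paired immunoglobulin-like receptor genes. Over the same window, each of Lilra6, Pira2, Gm14548 and Pirb was 96.1% to 97.1% identical to its nearest copy among the others. Reads from such copies can be placed at the wrong one, so their values are uncertain.

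The most accessible CpG-poor promoter was that of Trim5 at chr7:104287794-104288562. Its fold enrichment was 34.0, 34.2 and 34.0 in the Ctrl libraries and 29.6, 32, 33.9 and 34.4 in the WTAkita libraries. Cr2, the complement receptor CD21 of mature B cells, followed with 33.3, 36.1 and 32.8 in Ctrl and 30.6, 29.1, 34.4 and 34.9 in WTAkita. At both genes the groups overlapped, and the lowest values were those of WTAkita libraries 1 and 2. Fggy, a carbohydrate kinase, had a mean of 32.3 over the 7 libraries, and Lilra6, Gm5141 and Trim12c had 32.2, 31.7 and 31.4. The next 6 were Tph2, which makes serotonin in neurons, at 31.4, Pira2, an activating receptor of the same cluster, at 31.1, Ms4a7, a membrane protein of macrophages, at 30.8, the antibody receptor Trim21 at 30.7, Gm14548 at 30.5 and Ccdc180 at 30.4. This leading set mixed blood genes with genes known from other tissues. All 12 were called in every library.

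Accessibility at a start site rose steeply with its CpG ratio. Of 21695 CpG-poor start sites on the autosomes, 4605 (21.2%) lay in a region, against 27985 of 30368 other start sites (92.2%). With a ratio under 0.1 the share was 8.39%, between 0.3 and 0.4 it was 38.5%, and just above the limit, between 0.4 and 0.5, it was 64.1%. At 0.8 or more it reached 98.5%. The limit of 0.4 therefore falls on the steep part of this relation and not at a gap in it. Level varied far less than presence, since the median fold enrichment of start sites in regions called in all 7 libraries was 10.3 in the lowest bin and 14.0 in the highest. By gene, 1716 of 7076 genes whose every start is CpG-poor (24.3%) had an accessible one, and 1030 of 4597 genes that also have a start at or above the limit (22.4%) had an accessible CpG-poor one. On either side of the limit, Zc3h7a and Lsmem1 had a ratio of 0.3998 and a fold enrichment of 3.24 and 3.66, with peaks in 7 and 2 libraries. Cplx3 and Rbpjl, just above it, had 16 and 14.2 with peaks in all 7.

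**Figure D1:**
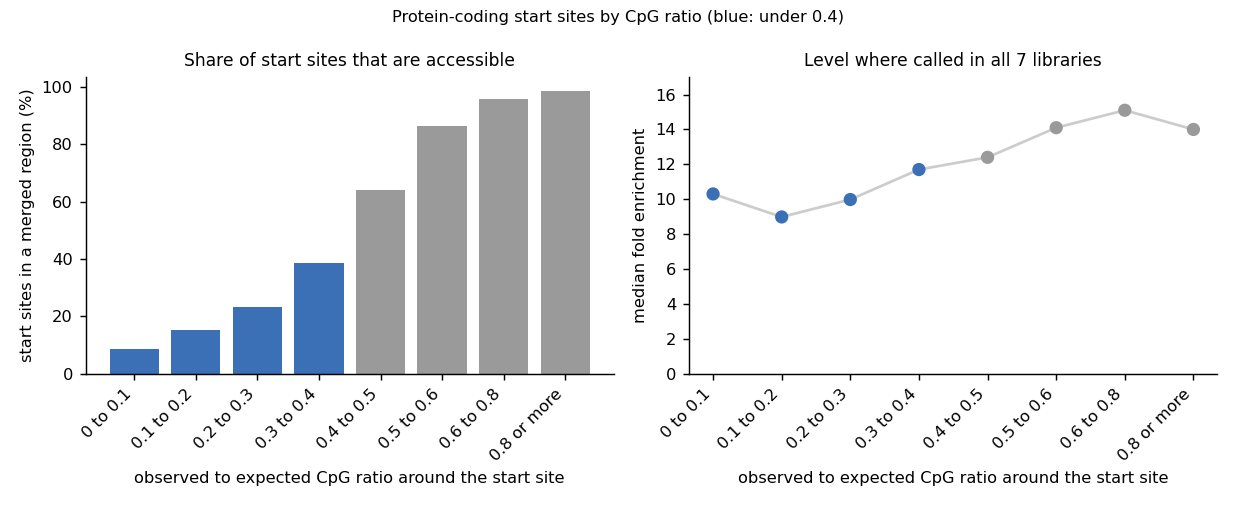
Protein-coding start sites on the autosomes, grouped by the observed to expected CpG ratio of the surrounding 500 bp on each side (x axis). The left panel gives the share of start sites inside a merged region in percent and the right panel the median fold enrichment of those in regions called in all 7 libraries, with bins under 0.4 in blue. The share climbs from 8.39% to 98.5%, while the median level stays between 8.98 and 15.1.

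Once open, these promoters were mostly open in every library. Of the 3029 regions, 2508 (82.8%) were called in all 7 libraries and 146 (4.82%) in 1. For the other promoters these shares were 97.5% and 0.513%, and for regions without a protein-coding start 58.1% and 13.8%. CpG-poor promoter regions were narrower than other promoters, with a median width of 737 against 1186 bp. Their GC content was 52.6% against 60.5%. The CpG ratio is scaled to C and G content, and whether the rule brings about this difference was not tested. The strongest summit lay within 100 bp of a start site in 55.4% of them and in 62.4% of the other promoters. Their median fold enrichment was 9.96, below the 13.9 of other promoters and above the 7.5 of regions without a start, and the middle 50% of them ran from 5.98 to 15.1. Their spread within groups, as an SD on the log2 scale after normalization, had a median of 0.143, between 0.117 for other promoters and 0.187 for regions without a start.

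The lower level held in each library. The CpG-poor promoters had a median fold enrichment of 9.53, 10.5 and 10.5 in the Ctrl libraries and of 8.62, 9.31, 10.8 and 10.9 in the WTAkita libraries. As a ratio to the median of the other promoters of the same library, this was 0.719 ± 0.00656 in Ctrl (SD, n = 3) and 0.72 ± 0.0258 in WTAkita (SD, n = 4). The groups overlapped in both measures. Ctrl 1, WTAkita 1 and WTAkita 2 had the lowest medians at all 3 kinds of region. Between 2704 and 2769 CpG-poor promoter regions were called per library. The libraries had 134811 to 148072 autosomal peaks, and a region can hold several peaks. Read depth is not part of the peak lists, so it is unknown here.

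The LSK label was read against start sites of marker genes. Ly6a, Kit, Flt3, Cd34, Slamf1, Cd48 and Procr were called in all 7 libraries, with mean fold enrichments from 6.8 at Procr to 14.5 at Flt3 and Cd34. Of 21 markers of cells outside the gate, 12 had no peak at a start site in any library. Among these were Ms4a1 of B cells, Cd3e and Cd3d of T cells, Hbb-bs and Slc4a1 of red cells, Camp, Ngp, Lcn2 and S100a8 of neutrophils, and Marco and Mrc1 of macrophages. The other 9 had peaks, in all 7 libraries at Cd79b, Lck, Hba-a1, Ltf, Adgre1 and Csf1r. The highest were Adgre1, the macrophage antigen F4/80, with 14.7 to 21.8, and the neutrophil granule gene Ltf, with 13.7 to 17.2.

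The letters of known motifs were counted in the promoters. In the window from 250 bases before to 50 after 1 start site per region, searched on both strands, the ETS core GAGGAA occurred in 1251 of 3029 CpG-poor promoter regions (41.3%). It occurred in 24.8% of other accessible promoters, in 28.1% of 8927 genes without an accessible CpG-poor start, and in 27.6% of all 20722 protein-coding genes. Those 8927 include genes that also have a start at or above the limit, and nearly all olfactory and vomeronasal receptor genes. The longer PU.1 form GAGGAAGT, which contains that core, was found in 9.11% of the CpG-poor accessible promoters against 2.34% of other accessible promoters, 2.78% of the inaccessible CpG-poor ones and 3.19% of all genes. Trim5, Trim12c, Ly6a and Pirb carry it, on either strand, in the sequences given here for them. For the RUNX letters TGTGGT the shares were 24.8% against 10.5%, 20.9% and 15.7% in the same order. These sets also differ in base composition, with a median GC content of the window of 52.5%, 63.1%, 45.8% and 54.8%, and the part of composition in these shares was not tested.

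Letters with a CpG inside were less frequent than in other accessible promoters, which the rule itself brings about, since it chose the members for few CpG. They were more frequent than in inaccessible CpG-poor promoters, whose windows also had a lower median GC content (45.8% against 52.5%). Accessibility also rose with the CpG ratio among CpG-poor start sites, and the part of composition in this excess was not tested. The Sp1 GC box GGGCGG was found in 21.8% of the CpG-poor accessible promoters, in 69.7% of other accessible promoters and in 6.07% of inaccessible CpG-poor ones, and the NRF1 letters GCGCATGC in 0.561%, 4.9% and 0.358%. The ETS form CCGGAA, read by the broadly expressed ETS factors, stood in 8.52%, 25.6% and 3.76%. A TATAAA in sense direction 40 to 15 bases before the start, the place of a TATA box, was present in 2.01% of the CpG-poor accessible promoters, 0.786% of other accessible promoters and 4.1% of inaccessible CpG-poor ones. The GATA letters AGATAA stood in 12.2%, 5.04% and 16.9%, so they were less frequent in accessible than in inaccessible CpG-poor promoters. CCAAT boxes (letters CCAAT) were about as common in all 3, with 33.5%, 35.2% and 37.3%. Within the CpG-poor promoters called in all 7 libraries, GAGGAAGT occurred in 10.7% of the top 25% by fold enrichment and in 8.29% of the bottom 25%.

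**Figure D2:**
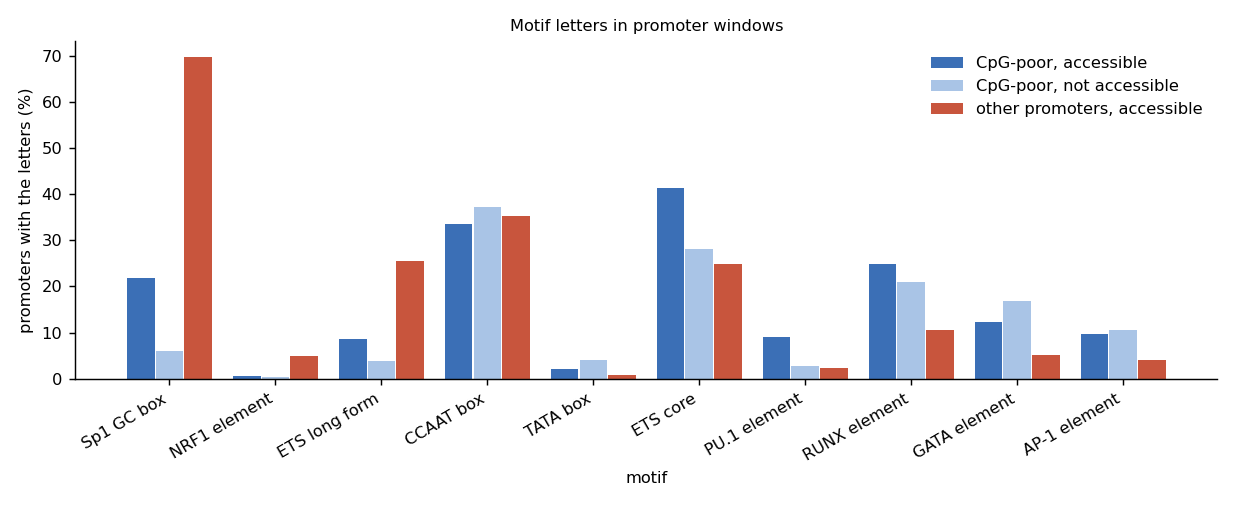
Share of promoter windows, in percent, that hold the letters of each motif (x axis), for accessible CpG-poor promoters, CpG-poor promoters of genes without an accessible CpG-poor start, and other accessible promoters. The PU.1 element stands in 9.11%, 2.78% and 2.34% of them, and the Sp1 GC box in 21.8%, 6.07% and 69.7%.

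The share of accessible genes varied widely between gene lists. Over all protein-coding genes with a CpG-poor start, 23.5% had an accessible one. For receptors and surface antigens of stem cells and progenitors the count was 17 of 18 genes, Esam being the exception. Cd33 led with 15.6, 17.9 and 17.7 in Ctrl and 16.7, 17.9, 17.5 and 17.2 in WTAkita. Ptprc, the pan-leukocyte phosphatase CD45, had a mean of 17.2 and Cd53, a tetraspanin, 14.0. The lowest was Cd27, a TNF receptor that divides multipotent progenitors, with 4.84. Kit, Flt3, Cd34 and Procr are not counted because their starts lie above the CpG limit.

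Adaptors and enzymes that signal below blood receptors came next, with 31 of 34 genes accessible and all 31 called in every library. Nckap1l, the actin regulator HEM1, had 28.6, 30.1 and 31.4 in Ctrl and 28.0, 29.3, 31.3 and 31.7 in WTAkita. Samsn1 and Sla2, adaptors that dampen receptor signals, had means of 19.6 and 18.7, and Arhgap9 had the lowest at 4.64. The letters GAGGAA stood in 20 of these 31 promoter regions and GAGGAAGT in 7, against 41.3% and 9.11% of all CpG-poor promoter regions. The blood lists differed in this. GAGGAA stood in 12 of 18 regions of the platelet list but in 7 of 24 of interferon-induced genes. GAGGAAGT stood in 6 of 19 regions of toll-like receptor and inflammasome genes but in 0 of 24 of interferon-induced genes.

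Receptors of mature myeloid cells were accessible in these LSK libraries as well, at 37 of 43 genes. Which cells of the sorted fraction these peaks come from was not tested. Pira2 led with a mean of 31.1, Pirb had 29.7 and Cd300lf, an inhibitory receptor for lipids, 27.1. The lowest was Csf1r, the receptor for M-CSF, at 3.43. The 6 without a region were Clec4d, Mrc1, Msr1, Marco, Fpr1 and C5ar1, scavenger, lectin and chemoattractant receptors of mature phagocytes. GAGGAA was found in 25 of the 37 regions and GAGGAAGT in 6.

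Granule genes were read as separate lists of earlier and later genes. Of genes of primary granules, mast cells and basophils, 15 of 20 were accessible, and of late neutrophil genes 10 of 20, of which 11 and 8 were called in all 7 libraries, with median fold enrichments of 8.28 and 9.45. The difference between the lists was not tested. Prg3, an eosinophil granule protein, had a mean of 28.9, Hdc, which makes histamine, 15.2, and the lysozyme gene Lyz2 12.4. Ctsg, cathepsin G, was the lowest of that list at 4.51, and Elane and Prtn3, its neighbours in function, were called in 3 libraries each. Among late genes, Il1r2, a decoy receptor, had 17.2, Ltf 15.4 and Anxa1 12.5. Camp, Ngp, Lcn2, S100a8 and S100a9 had no region at a CpG-poor start.

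The platelet list counted 18 of 21, with the G protein regulator Rgs18 at 26.2, the von Willebrand factor receptor subunit Gp1ba at 18.2 and Rab27b at 16.3. Gp5 had the lowest value, 3.49. The erythroid list counted 8 of 19. There Ermap had 16.2, the membrane protein genes Epb42 and Aqp1 had 11.4 and 11.1, and Hba-a1 had 3.33. The adult beta globin genes Hbb-bs and Hbb-bt and the erythroid factor Klf1 had no region.

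Lymphoid genes were accessible in part, with 15 of 24 on the B cell list and 21 of 34 on the list of T and natural killer cells. Besides Cr2, Bank1, a B cell scaffold protein, had 27.7 and the interleukin-7 receptor Il7r 20.6, while Vpreb2 had 3.25. Rag2, Dntt, Ms4a1, Vpreb1, Igll1, Fcrla, Pax5 and Pou2af1 were among those with no region at a CpG-poor start. Klrd1, which encodes CD94, had 26.1, the adaptor Lat 22.8 and the co-receptor Cd28 19.5. Klrb1c, which encodes NK1.1, was the lowest at 3.24.

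On the list of toll-like receptors and inflammasome genes 19 of 25 were accessible, all 19 in every library. The sensors Nlrp1b, Nlrp1a and Aim2 had means of 26.6, 25.8 and 23.5, and Tlr5, the flagellin receptor, 3.43. Nlrp1a and Nlrp1b are close paralogs, which makes their separate values uncertain. Interferon-induced genes counted 24 of 29, led by Xaf1 at 23.4, the guanylate-binding protein Gbp3 at 22.6 and Ifit3 at 21.1, with Isg15 lowest at 3.70. Of cytokines, chemokines and their receptors 35 of 51 were accessible. Il18rap, a subunit of the interleukin-18 receptor, had 23.8, the monocyte chemokine Ccl2 19.3, the death ligand Tnfsf10 18.6, and Il12rb1 2.67.

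Of 36 blood transcription factor genes, 18 (50%) had a CpG-poor start, against 56.4% of all protein-coding genes, and 12 of the 18 were accessible. Runx3 had 21.5, Irf4 17.9, the megakaryocyte and erythroid repressor Gfi1b 16.9, and Mecom, a regulator of stem cells, 5.93. Genes of glucose use and oxidative stress counted 9 of 16, with the thiol enzyme Glrx at 18.7, the phospholipase Pla2g4a at 16.5 and Ltc4s at 4.20.

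Genes of liver and striated muscle stood near the 23.5% over all genes. Of liver plasma protein genes 5 of 25 (20%) were accessible, with Ahsg at 9.79, Hp at 5.04, C3 at 4.72 and Ambp at 3.05. Of striated muscle genes 5 of 21 (23.8%) were accessible, among them Neb at 23.5, Tnni2 at 14.7, Ttn at 13.4 and Mb at 4.86. Pancreatic genes counted 1 of 19, Prss2, which was called in 3 libraries. Large sensory families had the lowest shares, with 21 of 1124 olfactory receptor genes (1.87%) and 1 of 326 vomeronasal receptor genes (0.307%). Keratins and their associated proteins counted 10 of 96. At the other end, all 8 Gimap genes, GTPases of lymphocytes, were accessible, and 68 of 195 zinc finger (Zfp) genes with a CpG-poor start were, at a median fold enrichment of 19.2.

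**Figure D3:**
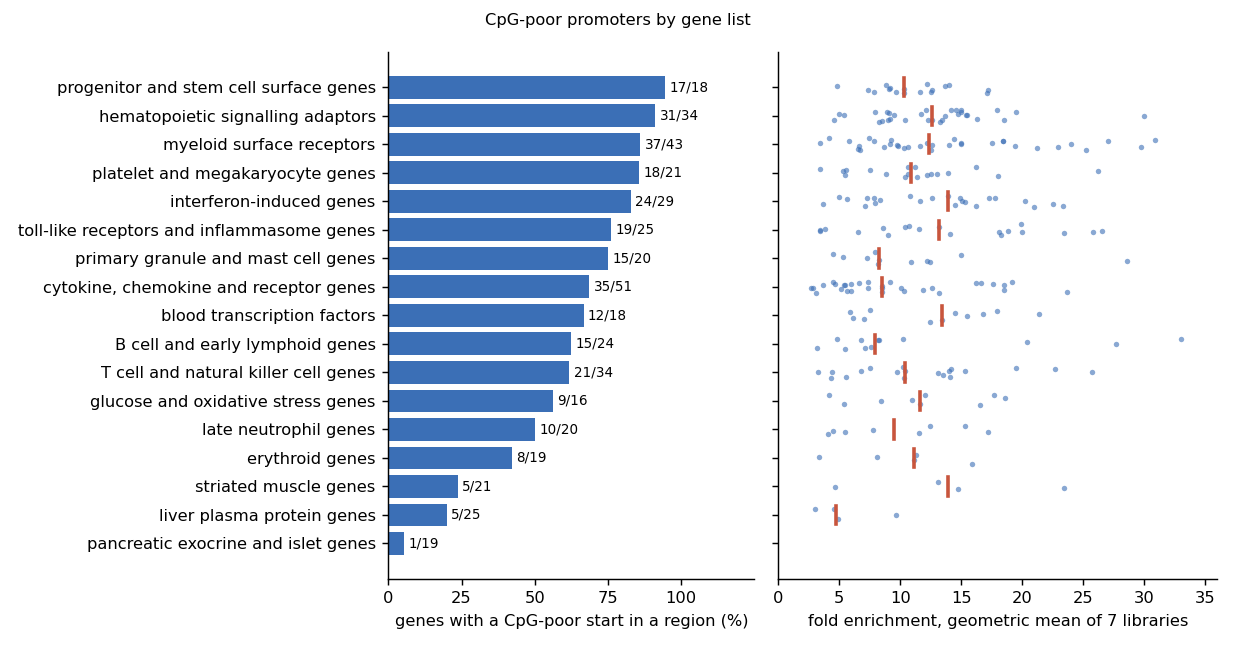
Left, the share in percent of each list's genes with a CpG-poor start whose start lies in a region, with counts beside the bars. Right, the fold enrichment of each gene called in all 7 libraries as the geometric mean of the libraries (points), with the median of the list as an orange bar. Blood lists stand between 42.1% and 94.4%, and liver, muscle and pancreas lists at 20%, 23.8% and 5.26%.

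Of the genes for proteins and transcripts named in the study, 39 had a CpG-poor start, and 25 of these were accessible there, 24 of them in every library. The 14 that were not include the methyltransferase genes Dnmt1 and Dnmt3a, the glycation end product receptor Ager, Ins2 and the cytokine genes Il1a, Il1b, Il12a, Il12b and Ifng, counted at their CpG-poor starts only. Ly6a had 10.5, 11.2 and 11.0 in Ctrl and 9.5, 9.17, 9.46 and 11.8 in WTAkita. Slamf1, the CD150 antigen of stem cells, had 6.14, 8.45 and 11.2 in Ctrl and 7.95, 10.3, 11.9 and 8.74 in WTAkita. At both the groups overlapped. The inflammasome sensor Nlrp3 had 10, 9.22 and 11.0 in Ctrl and 10.4, 10.1, 12.1 and 12.3 in WTAkita. These deposited values overlapped, while after quantile normalization all 4 WTAkita libraries lay above the 3 Ctrl libraries, by 0.23 on the log2 scale (SE 0.121, limma adjusted p = 1.0). Without Ctrl 2 the difference was 0.12. The cytokine genes Il6, Tnf and Ccl2 had 16.6 ± 1.69, 6.45 ± 0.998 and 20.2 ± 1.16 in Ctrl (mean ± SD, n = 3) and 16.6 ± 0.761, 5.68 ± 0.95 and 18.6 ± 2.2 in WTAkita (mean ± SD, n = 4). Tlr4, the endotoxin receptor, had 18.7 ± 0.737 and 19.0 ± 1.39, and the costimulatory antigen gene Cd86 had 21.9 ± 1.54 and 22.3 ± 1.81, in the same order. Ly6g, the neutrophil antigen, had a peak in WTAkita 3 only, at 3.53. Of the 24, 0 had an unadjusted limma p under 0.05.

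The comparison of WTAkita with Ctrl asked whether these promoters are open to a different degree after a diabetic pregnancy. It used the 105611 regions called in all 7 libraries, on the log2 scale after quantile normalization, with limma. No CpG-poor promoter differed at an adjusted p under 0.05, and neither did any other region (0.0% higher and 0.0% lower over all regions, smallest adjusted p 1.0). At an unadjusted p under 0.05, 37 of the 2508 CpG-poor promoter regions were higher in WTAkita (1.48%, against 1.76% of all regions) and 40 were lower (1.59%, against 2.1%). In 73 all WTAkita libraries lay above all Ctrl libraries (2.91%, against 2.46% of all regions), and in 37 below them (1.48%, against 2.26%). The count of lower CpG-poor promoters depends on the libraries used, since it was 60 at an unadjusted p under 0.05 without WTAkita 4. The share of all regions without WTAkita 4 is not given here, so whether this rise is particular to CpG-poor promoters is unknown. On the blood gene lists at most 1 promoter per list was higher and at most 1 lower at an unadjusted p under 0.05. Of 58 regions of zinc finger (Zfp) genes, 1 was higher and 6 were lower at that p. All 6 lie in the chromosome 2 cluster of near copies described below, so they are not separate measurements. The median difference, WTAkita minus Ctrl, was 0.02 for CpG-poor promoters, 0.03 for other promoters and 0.01 for all regions. The 5th and 95th percentiles were -0.22 and 0.23 for CpG-poor promoters, with a median SE of 0.129, and -0.11 and 0.16 for other promoters.

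**Figure D4:**
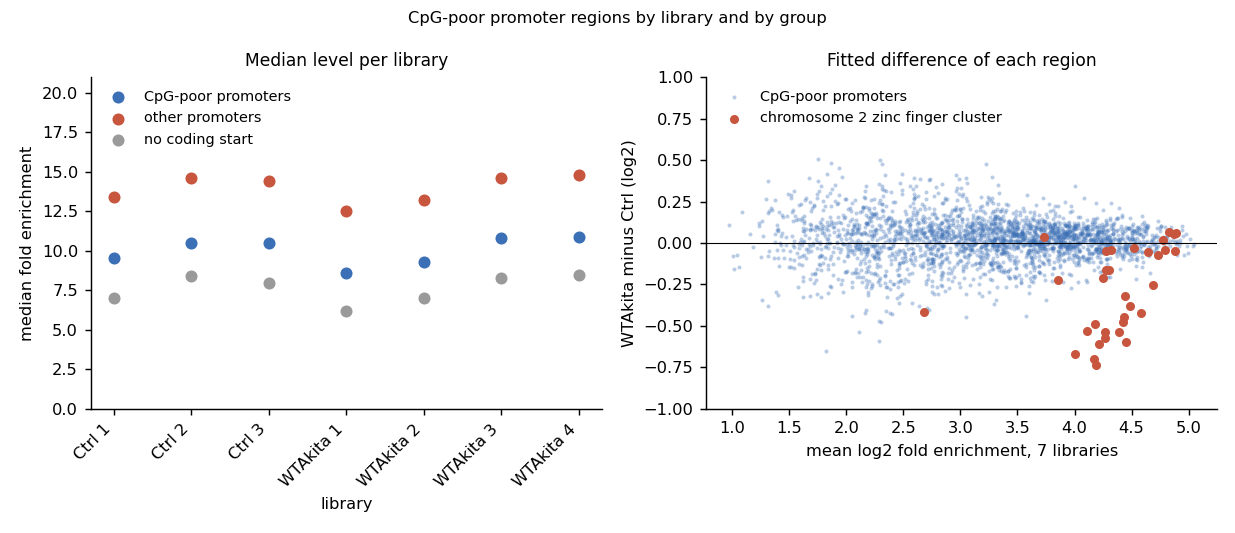
Left, the median fold enrichment per library of CpG-poor promoters, other promoters and regions without a protein-coding start, each over regions called in all 7 libraries. Right, the fitted log2 difference of WTAkita minus Ctrl against the mean log2 fold enrichment for each of the 2508 CpG-poor promoter regions, with those of a zinc finger gene cluster on chromosome 2 in orange. CpG-poor promoters stand between the other kinds in all 7 libraries, and the 3 lowest differences, from -0.73 to -0.67, are those of Zfp968, Zfp966 and Gm14419 in the cluster.

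Among the promoters with all WTAkita libraries above Ctrl after normalization, Tmem178b, an endoplasmic reticulum membrane protein, led with 8.07, 8.13 and 7.72 in Ctrl and 9.48, 9.88, 12 and 11.1 in WTAkita. Its difference was 0.48 (SE 0.122, limma adjusted p = 1.0), and its groups were apart in the deposited values too. Those of the other genes named here overlapped before normalization. Gm17359 differed by 0.40. Tcf4, a basic helix-loop-helix factor needed by plasmacytoid dendritic cells, differed by 0.34, or by 0.20 without Ctrl 3, and Fam107b by 0.27. Cfap73, a cilium protein gene, had 3.95, 3.74 and 4.65 in Ctrl and 4.54, 4.82, 6.7 and 6.84 in WTAkita, a difference of 0.50 at a low level. The splicing factor genes Hnrnpf and Rbfox2 differed by 0.24 and 0.35, and Ptdss2, a phosphatidylserine synthase, by 0.41. All 8 had an adjusted p of 1.0.

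Among those with all WTAkita libraries below Ctrl after normalization, Zfp973 and Gm14308 of chromosome 2 led and are described with their cluster. Pilrb1, an activating receptor of myeloid cells, had 3.93, 5.37 and 4.66 in Ctrl and 2.22, 2.66, 2.73 and 4.29 in WTAkita, and differed by -0.65 (limma adjusted p = 1.0). Nhsl1 had 14.4, 15.8 and 13.6 in Ctrl and 8.88, 9.88, 9.19 and 13.5 in WTAkita, a difference of -0.44. In both, WTAkita 4 was the highest library of its group. Hp, which encodes the hemoglobin scavenger haptoglobin, had 6.41, 5.81 and 5.97 against 3.23, 4.37, 4.95 and 4.57, a difference of -0.47. Fam118a differed by -0.22, the acyl-CoA thioesterase gene Acot7 by -0.38, and Tnfsf13, the B cell ligand APRIL, by -0.34, the last pair at fold enrichments of 2.05 to 3.23. Their adjusted p was 1.0 as well.

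Presence and absence gave 2 more promoters. Cdk15, a cyclin-dependent kinase gene, had no peak in Ctrl and 2.42, 2.85, 3.77 and 2.83 in WTAkita, and Gm13271 had no peak in Ctrl and 2.49, 2.97, 3.01 and 2.91 in WTAkita. These 2 of 3029 regions (0.066%) stand beside 0.0929% of all regions called in all WTAkita and no Ctrl libraries. In the other direction there were 0 CpG-poor promoters, against 0.111% of all regions. A missing peak says only that no peak passed the limit of the peak caller.

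A zinc finger gene cluster on chromosome 2, between 175000000 and 178100000, held the CpG-poor promoters with the 3 lowest differences. It was chosen after its values were seen. It holds 34 CpG-poor promoter regions, nearly all of genes named Zfp or of predicted genes (Gm), and 33 were called in all 7 libraries. Such KRAB-type zinc finger genes arise by tandem duplication, and many encode proteins that silence transposable elements. Over the 33, the Ctrl libraries had medians of 24.8, 26.2 and 25.7 and the WTAkita libraries medians of 13.5, 14.6, 19.8 and 27.6. WTAkita 1 to 3 were thus low and WTAkita 4 was as high as Ctrl. Zfp968 at chr2:175372038-175372974 had 24.8, 26.2 and 24.4 in Ctrl and 10.7, 10.4, 14.4 and 26.2 in WTAkita, a difference of -0.73 (SE 0.184, limma adjusted p = 1.0). Zfp966 had 24.5, 23.7 and 25.2 against 9.28, 10.4, 17.2 and 24.7, a difference of -0.70. Gm14308, with a difference of -0.59, had 26.3, 30.8 and 28.8 against 12.5, 15.0, 19.3 and 28.7. Gm14399 in the same cluster had 29.4, 27.8 and 28.0 against 24.6, 27.4, 30.2 and 31.6, a difference of 0.06.

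Of the 33, 16 had an unadjusted p under 0.05 with a lower value in WTAkita, so the cluster supplied 16 of the 40 lower CpG-poor promoters, and 24 remained without it. The median difference over the 33 was -0.25, with a range from -0.73 to 0.06. In 18 of them WTAkita 1 to 3 all lay below the other 4 libraries after normalization, a pattern found in 2.71% of all regions and in 2.71% of CpG-poor promoters. Of the 17 regions of the cluster without a protein-coding start that were called in all 7 libraries, 6 were lower at an unadjusted p under 0.05, with a median difference of -0.29 and a range from -0.66 to 0.1 over the 17. With WTAkita 4 left out, 7 regions passed an adjusted p of 0.05, all of them lower in WTAkita and in this cluster, and 5 were CpG-poor promoters, those of Zfp968, Gm2026, Gm14308, Zfp973 and Gm14419. Without Ctrl 1, WTAkita 1 and WTAkita 2, the libraries of lowest median, Zfp968 stood at -0.40, Zfp966 at -0.27 and Gm2026 at -0.19 in place of -0.45, and none of these passed an unadjusted p of 0.05. This setting was chosen after seeing the data. What sets WTAkita 4 apart here was not tested.

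The promoters of the cluster are near copies, and a stretch of 100 bases is printed to show it. It covers 80 bases before the start of Zfp968 and 20 from it on, and for the other genes it is the best match without gaps in the window around their own start. Capitals mark bases that differ from Zfp968. These genes were chosen after their values were seen.
Zfp968, chr2:175372356-175372455, plus strand: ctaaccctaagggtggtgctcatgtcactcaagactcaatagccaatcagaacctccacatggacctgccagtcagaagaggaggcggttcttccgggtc
Zfp966, chr2:175931107-175931206, minus strand: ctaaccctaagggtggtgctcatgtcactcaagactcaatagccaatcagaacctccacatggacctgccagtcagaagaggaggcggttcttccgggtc
Gm14308, chr2:176636358-176636457, minus strand: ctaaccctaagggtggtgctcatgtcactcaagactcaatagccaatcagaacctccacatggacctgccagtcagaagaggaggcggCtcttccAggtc
Gm14399, chr2:175142050-175142149, minus strand: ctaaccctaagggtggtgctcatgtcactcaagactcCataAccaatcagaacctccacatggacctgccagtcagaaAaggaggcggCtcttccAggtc
Zfp931, chr2:178078476-178078575, minus strand: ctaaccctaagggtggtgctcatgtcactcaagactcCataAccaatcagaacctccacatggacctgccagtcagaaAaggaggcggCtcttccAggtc

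Zfp966 has the same 100 bases as Zfp968, Gm14308 differs at 2 and Gm14399 and Zfp931 at 5 each. Over the window of 250 bases before to 50 after the start, each of the 34 promoters was at least 96.0% identical to its nearest copy over 200 or more aligned bases, and 21 were fully identical to another over the aligned part. The differences were then read by the number of changed bases in the printed stretch. The reference, Zfp968, has the lowest difference of all CpG-poor promoters and was chosen after its values were seen. Low values among its closest copies are therefore partly built in, and a relation of sequence to difference was not tested. The 8 promoters with these 100 bases, the reference Zfp968 itself among them, were all lower in WTAkita at an unadjusted p under 0.05. Their differences ran from -0.73, that of Zfp968, to -0.49. Those with 1 or 2 changed bases ranged from -0.59 to 0.03, and 6 of 13 passed. With 3 to 5 changed bases the range was -0.42 to 0.06, and 2 of 10 passed. Gm14408 and Zfp972, with 8 changed bases each, had -0.42 and -0.22, and 0 of these 2 passed. Identical copies can exchange reads, so the 8 are not separate measurements, and reads cannot be assigned to a single copy from the peak lists.

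**Figure D5:**
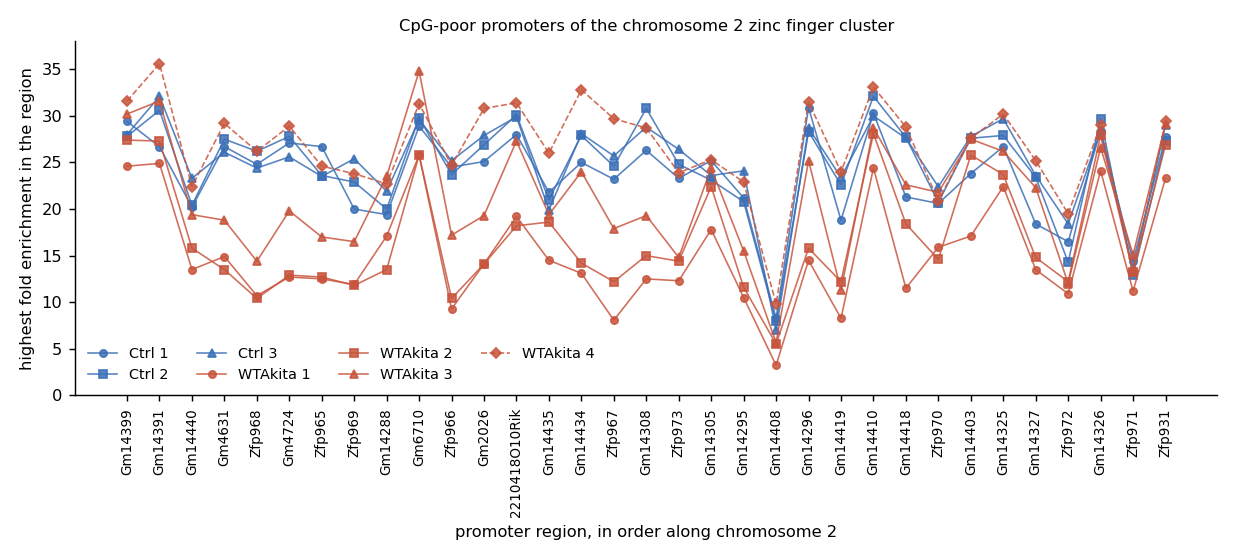
Highest fold enrichment in each of the 33 CpG-poor promoter regions of the chromosome 2 cluster that were called in all 7 libraries, in chromosomal order, with a line per library (Ctrl in blue, WTAkita in orange, WTAkita 4 dashed). At Zfp968, WTAkita 1 to 3 stand at 10.7, 10.4 and 14.4 while the other 4 libraries stand between 24.4 and 26.2. At Gm14399 the 7 libraries stand between 24.6 and 31.6.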

How the data were processed

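Open chromatin of sorted LSK cells was measured by ATAC-Seq in 3 Ctrl and 4 WTAkita libraries, grouped by their labels. Per the submitters' notes, reads went through Trim Galore 0.4.2 with cutadapt 1.9.1, Bowtie2 2.3.4.1 (build mm10) and MACS2 2.1.4, and 1 peak list per library resulted. The handling of reads with several equal placements is unknown. The lists deposited by the authors hold, for each peak, a fold enrichment over background (a ratio), a −log10 p (2.0 or more in all lists) and the offset of the summit from the peak start, which served only to place summits. The authors' values have no replicate pooling, and read depth is unknown, so no counting intervals can be given.

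Peaks on the 19 autosomes were merged into regions, and a region took the highest fold enrichment of each library. CpG ratios were read from the mm10 genome around starts of protein-coding transcripts of GENCODE vM21. Sequences are from that genome, and promoter windows are 250 bases before to 50 after a start. Regions called in all 7 libraries were log2-transformed and quantile normalized, and groups were compared by limma 3.58.1 in R 4.3.3 (moderated test with a variance trend, Benjamini-Hochberg adjustment over all 105611 regions, p threshold 0.05). Standard errors are those of limma. The limma fit was tested on simulated data in which every region had the same random spread and libraries were independent. These simulated data lack the unequal spread of regions and the library differences found here, so they do not test the fit for those. Other steps used Python 3.11.15, pandas 2.3.3, numpy 2.4.6 and Biopython 1.88.

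Genes were named by rule. These were the 12 promoters of highest mean, the 8 per direction with the largest limma statistic among those whose groups do not overlap, those called in all libraries of 1 group and none of the other, the 3 highest and the lowest of each gene list, the pair of regions nearest each side of the limit, and genes named in the study, a list completed after their values were seen. A few genes that these rules name are not reported here. The members and lists were chosen with earlier results of these data known. Alternatives covered normalization, GC content, peak threshold, variance trend, replicate numbers, the region value, the start sites, the CpG limit and each library left out. Leaving out the chromosome 2 cluster or the 3 libraries of lowest median was chosen after seeing the data.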

Additional observations from a re-analysis of the deposited data

Results flagged for a closer look

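Nlrp3 drew attention through a single library. Its quantile-normalized log2 fold enrichment was 3.66 in WTAkita 1 and 3.46, 3.48 and 3.46 in the other WTAkita libraries, so that WTAkita 1 stood apart by more than Dixon's 95% critical value for 4 libraries. It was the only one flagged of 40 such checks, and chance flags about 1 in 20 groups. In the deposited values WTAkita 1 (10.4) lay within the range of its group.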

How the results depend on the processing

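No alternative gave a region higher in WTAkita at an adjusted p under 0.05. Lower regions at that level numbered 0 with all libraries and from 0 to 7 with each library left out, 7 being the value without WTAkita 4. Whether the replicate numbers pair the libraries is unknown. The same-number correlations of deviations were 0.209, 0.0256 and 0.0634, and those of libraries with different numbers ran from -0.179 to 0.1. So few pairs cannot decide it. With a replicate block, in which WTAkita 4 is a block of its own and so adds nothing to the difference, 6 regions were lower, all in the chromosome 2 cluster, and 4 of them were the CpG-poor promoters of Zfp968, Gm2026, Gm14308 and Gm14419. CpG-poor promoters lower at an unadjusted p under 0.05 numbered 40, against 73 with the replicate block, 24 without the cluster and 34 to 60 with each library left out. Those higher ranged from 31 to 54 over all settings. The shares of all regions at that p are not given for these settings, so the changes may not be particular to CpG-poor promoters. The median difference stayed between 0.0 and 0.05. Taking the 5′ end of the gene in place of all transcript starts gave 1753 CpG-poor promoter regions, and CpG limits of 0.3 and 0.5 gave 2025 and 4264. Of 24 named differences under all settings, 311 values kept direction and side of the threshold, 19 kept only the direction, and 1, Nlrp3 without Ctrl 1, newly passed an unadjusted p of 0.05 with 0.29, while it stood at 0.12 without Ctrl 2. Zfp931, at 0.02, ranged from -0.04 to 0.06 with each library left out and changed sign without Ctrl 2 (-0.04) and WTAkita 2 (-0.01). Peak lists without read depth limit what can be said of weak or missing peaks.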
